A study of Mus musculus with 10 samples.

Results

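The 8 genes described here act in the mevalonate and cholesterol synthesis pathway and were picked by name out of the 55487 genes of a TPM table (transcript levels corrected for gene length and scaled to a fixed total in each library) of mouse colon intestinal epithelial cells (IECs). They were Hmgcs1, Mvd, Idi1, Fdps, Fdft1, Sqle, Lss and Srebf2, each on 1 row of the table. RNA came from IECs of 5 wild type (WT) and 5 RhoB-/- mice of the C57BL/6J strain, with 1 library per mouse and no treatment, dose or time course. The RhoB-/- mice carry a knockout of the small GTPase RhoB. The labels give neither age nor sex. The study's methods state a general age range in weeks for mice unless noted otherwise, and call the purchased WT mice male. They do not give the sex of the RhoB-/- mice used for IECs. The methods of the study name different sources for the WT and the RhoB-/- mice and do not call them littermates. Its results mention WT littermates for RhoB+/- mice in chronic colitis, but not for the mice sequenced here. For these libraries genotype and source therefore cannot be told apart. The question put to these genes was whether transcripts of sterol synthesis differ in RhoB-deficient epithelium.

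The mevalonate pathway builds isoprenoid units from acetyl-CoA. Farnesyl diphosphate, its branch point, is either joined into squalene and cyclized towards cholesterol or used for protein prenylation, dolichol and ubiquinone. In epithelial cells, which renew their membranes constantly, the enzymes are held under the control of SREBP2, a membrane-bound transcription factor that is cleaved and enters the nucleus when sterols run low. Hmgcs1 makes HMG-CoA, Mvd makes isopentenyl diphosphate, Idi1 isomerizes it, Fdps makes farnesyl diphosphate, Fdft1 makes squalene, Sqle epoxidizes squalene, Lss closes the sterol ring, and Srebf2 encodes SREBP2.

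Hmgcs1 and Lss were lower in RhoB-/- IECs, while the other 6 genes did not pass the test. All 8 passed the filter of a mean TPM of at least 1. All 8 had a negative log2 fold change, as did 8413 of the 12870 tested genes. A gene was called at an adjusted p below 0.05 (limma, Benjamini-Hochberg over 12870 tested genes), which called 2 of the 8 lower and 0 higher. Over all tested genes 13.5% were called lower and 7.73% higher. The 8 genes were chosen with earlier results of these data known, so their counts only describe them. The median log2 fold change of the 8 genes was -0.34, beside -0.13 over all tested genes. With the thresholds of the study (p below 0.05 before adjustment, fold change over 1.5), these 2 genes were the ones called lower, beside 8.33% of tested genes. None of the 8 genes had every RhoB-/- library below every WT library, a pattern seen in 8.55% of tested genes. The count of lower genes rose from 2 to 5 without RhoB-/- replicate 3 and also to 5 when mitochondrial transcripts were taken out of the TPM total, and it was 4 after quantile normalization. Over all tested genes the number called lower rose too, from 1734 of 12870. It was 2868 of 12867, 3536 of 13259 and 1975 of 12870 in the same order.

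The libraries did not all follow their group. Rhob itself read 170.5 to 388.7 TPM in WT, and in RhoB-/- it read 0.09, 0.10, 0.35, 0.57 and, in replicate 5, 110.9. The Rhob level of the library labelled RhoB-/- replicate 5 therefore goes against its label, and without it Hmgcs1 and Lss were still the only members called among the 8. RhoB-/- replicate 3 had the highest RhoB-/- value of 8 of 8 genes, which it had for 43.6% of all tested genes, and replicate 2 had the lowest of 8 of 8, which it had for 53.0%. Mitochondrial transcripts took 10.3% of TPM in RhoB-/- replicate 3 and 22.4% in replicate 2, beside 12.1 to 19.4% in the other RhoB-/- libraries. In WT they took 26.5% in replicate 1 and 17.5 to 20.3% in the others. WT replicate 1 was the lowest WT library for 6 of 8 genes, which it was for 43.8% of all tested genes. The part of the mitochondrial share in the results was not tested beyond taking these transcripts out.

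The epithelial label held, with Epcam at a mean of 1157 TPM in WT and 1424 in RhoB-/-. Of 7 epithelial markers 2 were higher, and of 8 markers of mature colonocytes 5 were higher. Of 7 goblet cell markers 2 were higher and 0 lower. Among all tested genes 7.73% were called higher and 13.5% lower. Of 10 proliferation markers 4 were lower and 0 higher, with a summed level of 325.2 to 430.4 TPM in WT and 167.9 to 430.6 in RhoB-/-. The highest sum in RhoB-/- was again in replicate 3 and the lowest in replicate 2. Of 8 immune markers 4 passed the filter and 3 were higher, at a summed 3.84 to 7.5 TPM in WT and 11.4 to 28.4 in RhoB-/-. Of 7 stromal markers 3 passed and 2 were higher, at a summed 8.54 to 11.8 TPM in WT and 13.1 to 53.8 in RhoB-/-. On average Dcn was at 2.02 TPM in WT and 9.74 in RhoB-/-, Vim at 5.85 and 10.9, Col3a1 at 1.07 and 2.80, and Col1a1 at 0.188 and 0.568. Pecam1, Pdgfra and Acta2 were at 0.974, 0.040 and 0.160 TPM in WT and at 0.986, 0.026 and 0.152 in RhoB-/-. The part of these cell populations in the results was not tested. In such bulk RNA, fewer cells of one type and less RNA per cell cannot be told apart.

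Promoter windows of 5 of the 8 genes (Hmgcs1, Mvd, Idi1, Lss and Srebf2) were held by the RefSeq table of GRCm38.p6, which covers a short stretch on either side of a gene start. They were searched on both strands for TCACNCCAC, a core of the sterol regulatory element, and for CCAAT and GGGCGG, the boxes bound by NF-Y and Sp1. The 3 stretches below show the 2 genes that fell and the gene of their regulator, 5′ to 3′ on the strand of the gene, with matches to the 3 motifs in capitals.
Hmgcs1, chr13:119690201-119690350, plus strand: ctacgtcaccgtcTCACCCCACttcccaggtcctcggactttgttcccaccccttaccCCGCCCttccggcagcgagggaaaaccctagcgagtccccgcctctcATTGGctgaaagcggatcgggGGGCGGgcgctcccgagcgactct
Lss, chr10:76531438-76531587, plus strand: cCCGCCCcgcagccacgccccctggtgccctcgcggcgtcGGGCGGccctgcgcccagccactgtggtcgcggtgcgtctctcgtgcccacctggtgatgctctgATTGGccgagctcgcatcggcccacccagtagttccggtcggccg
Srebf2, chr15:82147031-82147180, plus strand: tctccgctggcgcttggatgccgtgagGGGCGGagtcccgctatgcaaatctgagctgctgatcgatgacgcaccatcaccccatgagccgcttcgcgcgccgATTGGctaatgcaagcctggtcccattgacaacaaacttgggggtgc
TCACNCCAC was found in 1 of the 5 windows, that of Hmgcs1, at position -137 from the RefSeq start, and in 1.24% of 32851 windows of all genes. CCAAT was found in 5 of 5 windows and in 37.4% of all. GGGCGG was found in 5 of 5 windows and in 35.7% of all. The motifs do not overlap one another in the stretches shown, and a match describes letters only.

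Hmgcs1 (ENSMUSG00000093930, chr13:119690379-119708260, plus strand, GENCODE M21 on GRCm38) encodes the cytosolic synthase at the entry to the pathway. Its TPM was 133.6, 206.3, 219.3, 173.3 and 270.5 in WT replicates 1 to 5, and 109.4, 91.6, 147.6, 104.8 and 121.2 in RhoB-/- replicates 1 to 5. Of the RhoB-/- libraries 4 lay below the lowest WT library, and RhoB-/- replicate 3 lay above WT replicate 1 alone. The WT mean of 200.6 ± 51.2 compared with 114.9 ± 21.1 in RhoB-/- (SD, n = 5 each), so the mean fell by 42.7%. On the log2(TPM + 1) scale the fold change was -0.78 (SE 0.18, 95% interval -1.18 to -0.38, adjusted p = 0.0130, limma). Of all tested genes 4.46% had a lower fold change. The two-sided exact permutation test over libraries gave p = 0.0159.

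Lss (ENSMUSG00000033105, chr10:76531588-76557138, plus strand) encodes lanosterol synthase, which forms the first sterol of the pathway. Its TPM was 16.7, 23.9, 20.9, 21.7 and 25.1 in WT replicates 1 to 5, and 11.8, 10.4, 18.8, 13.7 and 14.1 in RhoB-/- replicates 1 to 5. The groups overlapped only through RhoB-/- replicate 3 and WT replicate 1, as for Hmgcs1. The WT mean of 21.6 ± 3.24 compared with 13.8 ± 3.19 in RhoB-/- (SD, n = 5 each), so the mean fell by 36.4%. The log2 fold change was -0.63 (SE 0.15, 95% interval -0.97 to -0.29, adjusted p = 0.0151, limma), and 8.07% of tested genes had a lower one. The exact permutation test gave p = 0.0159. Both Hmgcs1 and Lss kept the call when each library was left out in turn, with adjusted p between 0.00411 and 0.0335 for Hmgcs1 and between 0.00320 and 0.0409 for Lss (limma).

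**Figure D1:**
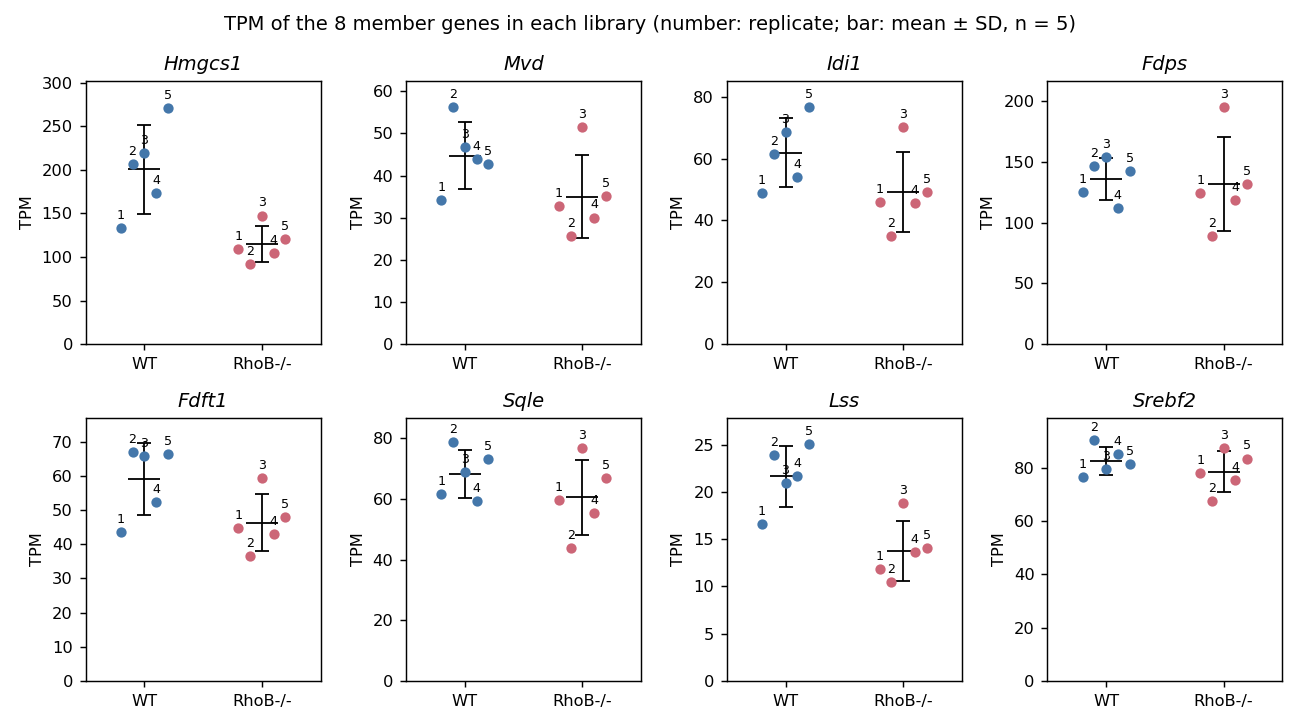
TPM (vertical axes, from 0) of the 8 genes in each WT and RhoB-/- library, with the replicate number beside each point and a bar for the mean ± SD of 5 libraries. RhoB-/- replicate 3 is the highest RhoB-/- library in all 8 panels, and only for Hmgcs1 and Lss do 4 RhoB-/- libraries lie below every WT library.

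Mvd, Idi1 and Fdft1 had RhoB-/- means 20.6 to 21.7% below WT, but were not called. Mvd (ENSMUSG00000006517, chr8:122433601-122443422, minus strand), the decarboxylase that makes isopentenyl diphosphate, read 34.2, 56.2, 46.7, 43.9 and 42.7 TPM in WT replicates 1 to 5 and 32.8, 25.7, 51.5, 30.1 and 35.1 in RhoB-/- replicates 1 to 5. In RhoB-/- 3 libraries lay below the lowest WT library, and replicate 3 exceeded 4 of the WT libraries. The mean was 44.8 ± 7.95 and 35.0 ± 9.88 (SD, n = 5 each), with a log2 fold change of -0.37 (95% interval -0.76 to 0.02, adjusted p = 0.160, limma).

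Idi1 (ENSMUSG00000058258, chr13:8885501-8892451, plus strand), the isomerase that supplies dimethylallyl diphosphate, read 49.0, 61.6, 68.6, 54.0 and 76.7 TPM in WT and 45.9, 35.0, 70.1, 45.8 and 49.2 in RhoB-/-. Again 3 RhoB-/- libraries lay below all WT libraries. The mean was 62.0 ± 11.1 and 49.2 ± 12.8 (SD, n = 5 each), with a log2 fold change of -0.34 (95% interval -0.73 to 0.04, adjusted p = 0.176, limma).

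Fdft1 (ENSMUSG00000021273, chr14:63145150-63179578, minus strand), squalene synthase, commits farnesyl diphosphate to sterols. It read 43.7, 67.1, 65.8, 52.5 and 66.5 TPM in WT and 44.9, 36.5, 59.3, 42.9 and 48.1 in RhoB-/-. All 5 RhoB-/- values were below the WT median, and 2 were below the lowest WT library. The mean was 59.1 ± 10.5 and 46.3 ± 8.42 (SD, n = 5 each), with a log2 fold change of -0.34 (95% interval -0.68 to -0.01, adjusted p = 0.130, limma). Without RhoB-/- replicate 3 the adjusted p was 0.0214 for Mvd, 0.0321 for Idi1 and 0.0429 for Fdft1 (limma), and leaving out any other single library gave no call for these 3 genes.

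Sqle, Fdps and Srebf2 differed least. Sqle (ENSMUSG00000022351, chr15:59315077-59331192, plus strand), squalene epoxidase, read 61.8, 78.6, 68.7, 59.3 and 73.0 TPM in WT and 59.6, 43.9, 76.8, 55.4 and 67.1 in RhoB-/-. The ranges overlapped widely. The mean was 68.3 ± 7.95 and 60.6 ± 12.4 (SD, n = 5 each), with a log2 fold change of -0.19 (95% interval -0.51 to 0.13, adjusted p = 0.378, limma).

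Fdps (ENSMUSG00000059743, chr3:89093588-89101959, minus strand), farnesyl diphosphate synthase, read 125.0, 146.4, 154.1, 111.9 and 142.3 TPM in WT and 124.3, 88.7, 195.1, 118.4 and 132.0 in RhoB-/-. RhoB-/- replicate 3 was the highest and replicate 2 the lowest of all 10 libraries. The mean was 135.9 ± 17.2 and 131.7 ± 39.0 (SD, n = 5 each), with a log2 fold change of -0.08 (95% interval -0.48 to 0.31, adjusted p = 0.769, limma). Its sign turned when fold changes were recentred on the median gene (0.04) and without RhoB-/- replicate 2 (0.05).

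Srebf2 (ENSMUSG00000022463, chr15:82147181-82205379, plus strand), the gene of SREBP2, read 76.5, 90.4, 79.7, 85.0 and 81.4 TPM in WT and 78.2, 67.7, 87.6, 75.6 and 83.5 in RhoB-/-. It varied least of the 8 genes, with a coefficient of variation of 6.44% in WT and 9.76% in RhoB-/-. The mean was 82.6 ± 5.32 and 78.5 ± 7.66 (SD, n = 5 each), with a log2 fold change of -0.08 (95% interval -0.29 to 0.14, adjusted p = 0.601, limma), which became 0.05 when recentred.

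By mean TPM, a scale per transcript length, the order in WT was Hmgcs1, Fdps, Srebf2, Sqle, Idi1, Fdft1, Mvd and Lss. In RhoB-/- Fdps (131.7) stood before Hmgcs1 (114.9), and the rest of the order was the same. In WT each gene exceeded the next in 5 of 5 libraries, except Sqle over Idi1 and Idi1 over Fdft1, each in 4 of 5. In RhoB-/- the exceptions were Fdps over Hmgcs1 and Idi1 over Fdft1, each in 4 of 5. Idi1 and Fdft1 differed by less than the spread between libraries, with a log2 ratio of 0.07 ± 0.13 in WT and 0.07 ± 0.11 in RhoB-/- (SD, n = 5 each), and by median TPM they changed places in WT. Idi1 over Sqle in WT, at -0.15 ± 0.19, also lay within its spread. An exact sign-flip test over 5 libraries cannot go below p = 0.0625, so it decides nothing about neighbours in either order.

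The 7 enzymes summed to 463.9 to 696.7 TPM in WT and 331.7 to 619.2 in RhoB-/-, with means of 592.3 ± 97.6 and 451.4 ± 105.9 (SD, n = 5 each). Hmgcs1 made up 28.8 to 38.8% of that sum in WT and 23.8 to 27.6% in RhoB-/-. The shares of the 2 genotypes did not overlap. Hmgcs1 had the most negative log2 fold change of the 7 enzymes (-0.78), so a lower mean share follows from that value. The share is therefore no separate result, and its lack of overlap only describes the libraries. Against single other tested genes, the Hmgcs1 ratio was also lower without overlap for 35.5%.

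Ratios within a library do not depend on how the library was scaled, apart from the added 1 TPM. For the 28 pairs of the 8 genes, a comparison chosen after the values had been seen, the log2 ratio did not overlap between genotypes in 9 pairs. Hmgcs1 was lower relative to 6 of the other 7 genes in every RhoB-/- library than in any WT library, the exception being Lss. Relative to Srebf2 the mean log2 ratio was 1.23 ± 0.36 in WT and 0.53 ± 0.13 in RhoB-/- (SD, n = 5 each), a difference of -0.70. Relative to Fdps the mean log2 ratio was 0.53 ± 0.30 in WT and -0.17 ± 0.16 in RhoB-/-, also a difference of -0.70. Against all 12869 other tested genes, the Hmgcs1 ratio was lower without overlap for 35.5%.

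Lss was lower without overlap relative to Fdps, Sqle and Srebf2, by -0.55, -0.44 and -0.55 on the log2 scale, and against 33.7% of all other tested genes. Its ratio to Hmgcs1 overlapped, with a difference of 0.15 for Lss over Hmgcs1 that was within the spread (p = 0.230, exact permutation test, n = 5 per group). The ratio of Fdps to Srebf2 was 0.70 ± 0.20 in WT and 0.70 ± 0.28 in RhoB-/-. The 9 pairs were picked out by their lack of overlap, so no p is given for them.

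**Figure D2:**
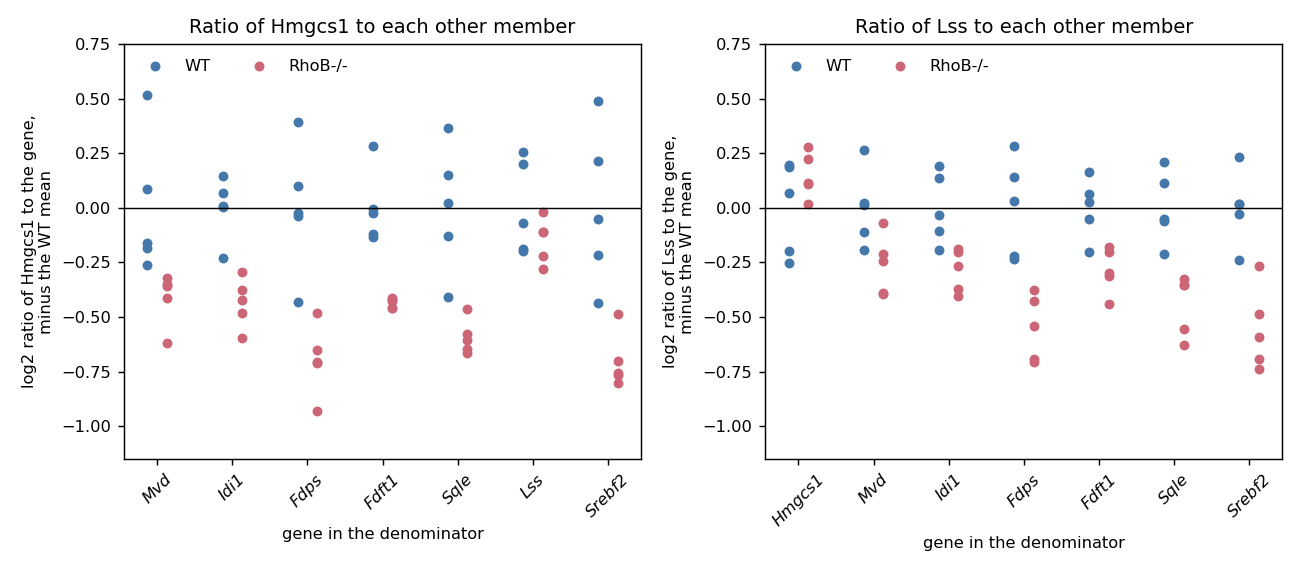
Log2 ratio of Hmgcs1 (left) and of Lss (right) to each other gene of the 8 in each library, minus the WT mean of that ratio, with 5 WT and 5 RhoB-/- points per gene on the horizontal axis. The RhoB-/- points lie below all WT points for Hmgcs1 over 6 of 7 genes and for Lss over 3 of 7.

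The other enzymes of the pathway were read from a list of 14 genes that spans both ends of it. All 14 passed the filter, 1 was lower, 0 were higher, and the median log2 fold change was -0.23, so their share called, 7.14%, was below the 13.5% of all tested genes. Dhcr7, a reductase of the last steps to cholesterol, was the gene that fell. It read 57.6, 89.8, 69.7, 78.7 and 77.7 TPM in WT and 47.3, 48.7, 58.6, 49.8 and 55.9 in RhoB-/-, with 4 RhoB-/- libraries below the lowest WT library. Its log2 fold change was -0.50 (SE 0.12, adjusted p = 0.0159, limma), and the call was lost when recentred on the median gene (adjusted p = 0.0588).

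Among the genes of the list that were not called, log2 fold changes ran from -0.50 for Acat2 to 0.19 for Sc5d, and 3 of the 14 had a positive value. The number of the 14 called lower moved between 0 and 7 over the alternatives, with 5 without RhoB-/- replicate 3 and 7 without mitochondrial transcripts. Over all tested genes the number called lower rose as well, from 1734 of 12870 to 2868 of 12867 and 3536 of 13259.

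**Figure D3:**
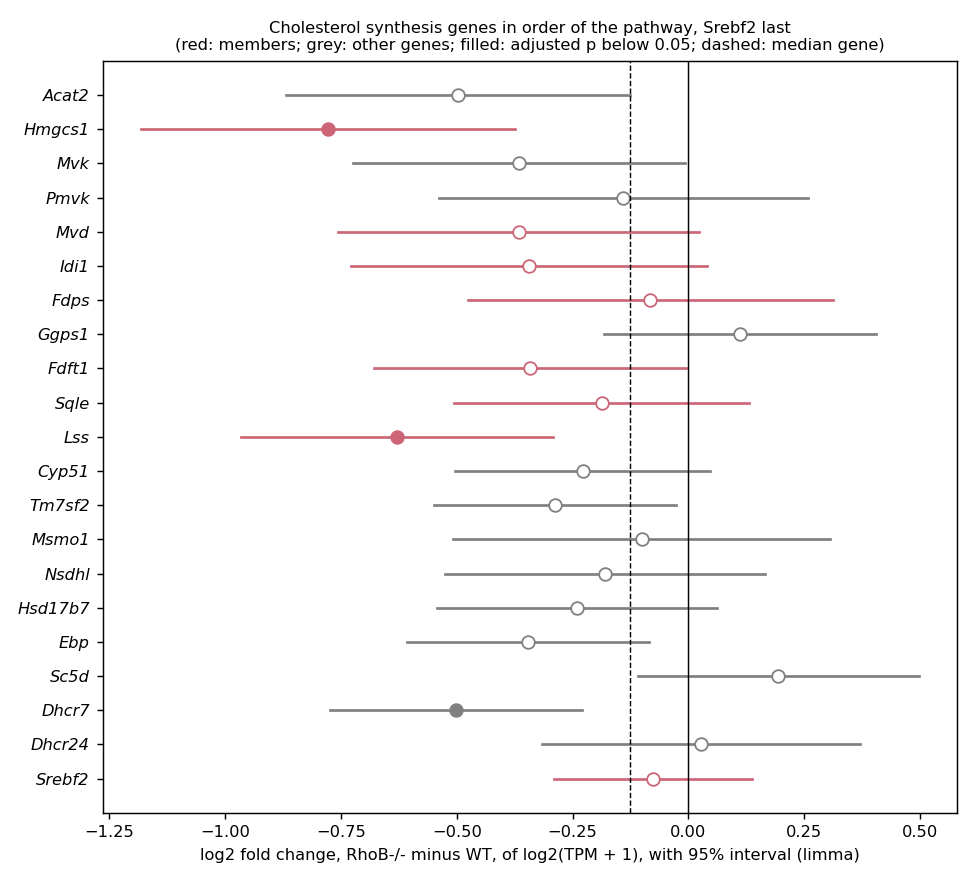
Log2 fold change of log2(TPM + 1), RhoB-/- minus WT, with its 95% interval from limma (horizontal axis), for the 8 genes (red) and 13 other synthesis genes (grey) in pathway order with Srebf2 last. Filled points, at Hmgcs1, Lss and Dhcr7, passed an adjusted p of 0.05, and the dashed line marks the median tested gene at -0.13.

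Within each genotype the 8 genes varied together. The Pearson correlation of each with the mean of the others, on log2(TPM + 1) centred within genotype over the 10 libraries, ran from 0.812 for Srebf2 to 0.961 for Fdft1. The points share library scaling, and RhoB-/- replicates 2 and 3 hold the extremes, so these values only describe the libraries. Among genes outside the 8, the most alike by the same measure was Pmvk, the kinase before Mvd in the pathway, at 0.976. It was followed by Yipf4, Btf3, H2-Q4, Sft2d1, Ripk4, Psmb10, Pawr, Ddx47 and Mrpl27, down to 0.954. Of these 10 genes 1 was a gene of the pathway.

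**Figure D4:**
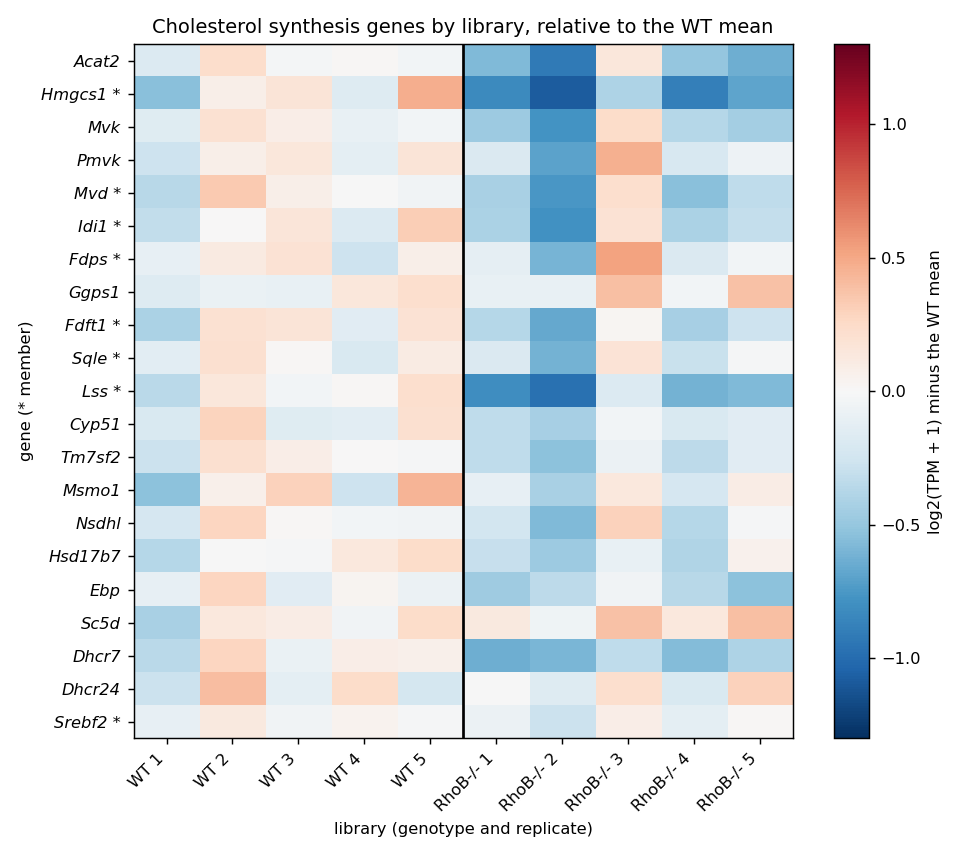
Log2(TPM + 1) minus the WT mean (colour, blue lower and red higher) for 21 genes of the pathway in rows, the 8 starred, and the 10 libraries in columns. The columns of RhoB-/- replicates 1, 2 and 4 are mostly blue, and RhoB-/- replicate 3 is red for most rows. Hmgcs1, Lss and Dhcr7 are blue in all 5 RhoB-/- columns, as are Cyp51, Tm7sf2 and Ebp, which were not called.

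Of 11 genes that control SREBP or sterol sensing, 4 were lower and 1 higher. The share lower was 36.4%, beside 13.5% lower and 7.73% higher of all tested genes. Like the 8 genes and the 14 other synthesis genes, this list and those below were chosen with earlier results of these data known. The counts and shares therefore only describe them. Srebf1, the gene of SREBP1, which favours fatty acid genes, read 40.9 to 69.5 TPM in WT and 21.4 to 33.8 in RhoB-/-, without overlap (log2 fold change -0.99, SE 0.16, adjusted p = 0.00167, limma). Insig1, an SREBP target whose product holds SREBP in the endoplasmic reticulum, read 49.7, 87.6, 105.0, 81.7 and 131.1 TPM in WT and 34.6, 34.7, 48.4, 36.4 and 50.3 in RhoB-/- (-1.09, SE 0.22, adjusted p = 0.00657, limma).

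Insig2, its paralog, rose, from 21.7 to 32.1 TPM in WT to 34.4 to 59.0 in RhoB-/- (log2 fold change 0.59, adjusted p = 0.0258, limma). Mbtps1, the site-1 protease that cuts SREBP, was lower at -0.44 (adjusted p = 0.0347, limma). The call of Mbtps1 was lost in 10 of 18 alternatives, and that of Insig2 in 4.

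Of 11 genes of sterol uptake and transfer 10 passed the filter, with 4 lower and 2 higher. The share lower was 40.0%, beside 13.5% lower and 7.73% higher of all tested genes. Tmem97, a sterol-regulated membrane protein, fell by 0.77 on the log2 scale (adjusted p = 0.0135, limma). Npc1, which exports cholesterol from lysosomes, rose from 13.02 to 18.5 TPM in WT to 21.6 to 41.7 in RhoB-/- (log2 fold change 0.88, SE 0.16, adjusted p = 0.00301, limma).

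Of 12 genes of LXR signalling, export and storage 7 passed the filter, with 3 lower and 0 higher. The share lower was 42.9%, beside 13.5% of all tested genes. Mylip, a ubiquitin ligase induced by LXR, read 5.66 to 9.38 TPM in WT and 2.27 to 3.72 in RhoB-/- (log2 fold change -1.06, SE 0.16, adjusted p = 0.00112, limma). Abcg5, a subunit of the sterol exporter ABCG5/ABCG8, was lower at -0.97 and Soat1, which esterifies cholesterol, at -0.61 (adjusted p = 0.0207 and 0.0282, limma). The calls of Abcg5 and Soat1 were lost in 3 of 17 and 9 of 18 alternatives.

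Of 13 genes of fatty acid synthesis, the SREBP1 branch, 12 passed the filter, with 6 lower and 1 higher. The share lower was 50.0%, beside 13.5% lower and 7.73% higher of all tested genes. Scd2 and Scd1, desaturases that make oleate, fell by 1.22 and 1.18 on the log2 scale (adjusted p = 0.000547 and 0.000180, limma). Acly, which supplies cytosolic acetyl-CoA to both branches, fell by 0.998 (adjusted p = 0.00409, limma). Scd1 read 27.4 to 41.7 TPM in WT and 10.3 to 15.5 in RhoB-/-. The median of this list was -0.45, beside -0.34 for the 8 genes and -0.13 for all tested genes.

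Of 16 genes that use isoprenoids in prenylation, dolichol and ubiquinone synthesis, 2 were lower and 1 higher. Coq2, a prenyltransferase of ubiquinone synthesis, was lower at -0.54 and Rabggtb, a subunit of Rab geranylgeranyl transferase, at -0.49 (adjusted p = 0.0217 and 0.0325, limma). Nus1, a subunit of the dolichol-making transferase, was higher at 0.52 (adjusted p = 0.0131, limma). The call of Rabggtb was lost in 11 of 18 alternatives and that of Coq2 in 4. The 12.5% of this list called lower is near the 13.5% of all tested genes.

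**Figure D5:**
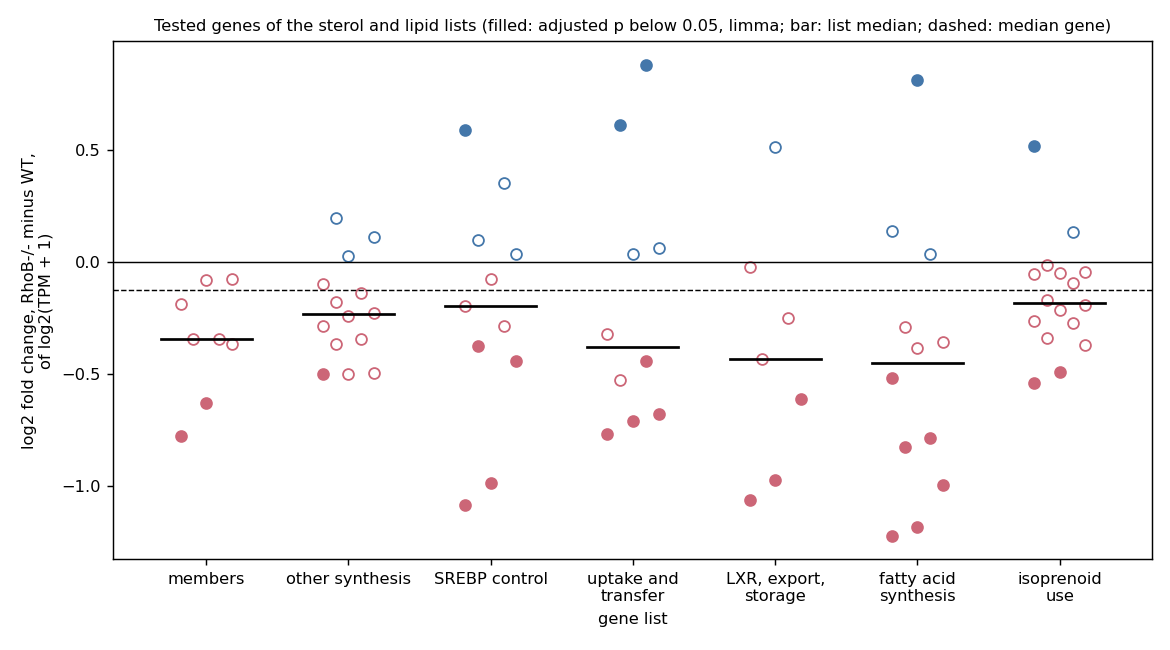
Log2 fold change of log2(TPM + 1), RhoB-/- minus WT (vertical axis), of each tested gene in the 7 lists on the horizontal axis, with filled points past an adjusted p of 0.05 (limma), red below and blue above 0, and a bar at each list's median. The median is -0.34 for the 8 genes and -0.45 for fatty acid synthesis, beside a dashed line for the median tested gene at -0.13.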

How the data were processed

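IECs were released from mouse colon and their RNA sequenced as paired reads. Per the study's methods and the labels, the authors aligned reads with HISAT2 and used StringTie and RSEM on GRCm38.p6; edgeR is also named, without its role. The deposited values are TPM per gene, rounded to 2 decimals. TPM is relative within a library and keeps no depth, so the counting error of each value is unknown and errors are SD between mice. Groups came from the sample titles. The limma p-values set the difference between genotypes against the spread between libraries, which limma draws towards that of the other tested genes.

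log2(TPM + 1) was fitted for all 10 libraries with limma 3.58.1 (R 4.3.3, trended eBayes) over 12870 genes averaging at least 1 TPM, with Benjamini-Hochberg adjustment over all of them. Fold changes are on that scale and understate low genes. The 8 genes and all lists were chosen with earlier results of these data known. Named were the 8 genes, called genes of the synthesis and SREBP control lists, the 3 largest called changes of each further list and the 10 genes most alike, except some that are not reported here. The script was tested on simulated data. Alternatives were other pseudocounts and filters, recentring, quantile normalization, no trend, no mitochondrial genes, a replicate block, each library left out, an exact permutation test, medians in place of means for the order of levels and the study's thresholds. Same-numbered libraries correlated between -0.0874 and 0.0720, so numbers were not treated as pairs. Motif windows came from RefSeq and positions from GENCODE M21.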

Additional observations from a re-analysis of the deposited data

Results flagged for a closer look

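Within the 5 RhoB-/- libraries, Srebf1 was highest in replicate 3, at 33.84 TPM, which stood apart from the other 4 libraries by Dixon's gap criterion. Insig2 was highest in RhoB-/- replicate 5, at 59.03 TPM, by the same criterion. Of 52 groups of 5 libraries examined, 2 held such a library, and chance gives about 2.6.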

How the results depend on the processing

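Hmgcs1 and Lss kept their direction and a p below 0.05 in each of 19 alternatives. That p was adjusted, except in the exact permutation test, which gave 0.0159 before adjustment for both genes. The 8 genes called lower, 2 in the reported fit, were 4 after quantile normalization and 5 without mitochondrial genes, and ranged from 2 to 5 with each library left out. The other synthesis genes called lower, 1 in the reported fit, were 2 with a pseudocount of 0.1, 3 with a mean TPM of at least 5, 0 after recentring, 5 after quantile normalization, 7 without mitochondrial genes and 0 at the study's thresholds, and ranged from 1 to 5 with each library left out. Of all tested genes 1734 were lower; the number was 1104 with a mean TPM of at least 5, 771 after recentring, 3536 without mitochondrial genes and 1072 at the study's thresholds, and ranged from 853 to 2868 with each library left out. The 995 higher became 1587 after quantile normalization. Lower calls made up 63.5% of all calls, 34.8% after recentring by the median of -0.13 and 75.8% without mitochondrial genes. Fdps turned to 0.04 after recentring and to 0.05 without RhoB-/- replicate 2 (-0.23 to 0.05 with each library left out), and Srebf2 to 0.05 after recentring. The causes were not tested.

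A replicate block, for numbers that do not pair the libraries (1 of 5 WT libraries correlated best with its own number), called 2 of the 8 genes and 1 other synthesis gene lower, and 1059 genes lower and 836 higher overall. The separated pair ratios, 9 of 28, were 10 with a pseudocount of 0.1 and 9 to 13 with each library left out. Depth is unknown, so low genes such as Abcg5 carry an unknown counting error, and 5 mice per genotype limit what can be told apart.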
